A study of Mus musculus with 12 samples.

Results

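The 9 genes described here encode the enzymes, transporter and regulatory proteins by which hepatocytes make, release, break down and store glucose: Pck1, G6pc, Fbp1, Pcx, Pfkfb1, Slc2a2, Gys2, Pygl and Ppp1r3b. They were chosen by name, by a rule that uses no measured value but with earlier results of these data known, and looked up by symbol among the 56205 Ensembl genes of the count table. All 9 were found and all 9 passed the low-count filter, which kept 13416 genes.

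RNA from whole livers of 12 mice, stated to be male, was sequenced as poly(A)-selected libraries, 1 library per mouse. All mice were ob/ob (OBOB in the labels), which lack leptin and become obese and hyperglycaemic, were stated to be 8 to 10 weeks old at the start, and ate standard chow. Mice of the OBOB_FLO group (FLO, n = 6) received nothing else, and those of the OBOB_Fibrotic group (Fibrotic, n = 6) also received ethionine, the ethyl analogue of methionine. Fibrotic is the name in the labels, while the study's main text describes ethionine as a way to produce fatty liver disease with steatosis and inflammation. Col1a1, a collagen I chain, ranged from 12.7 to 42.2 CPM in FLO and from 11.3 to 46.8 CPM in Fibrotic livers and was not called (log2 fold change -0.22, SE 0.33, adjusted p = 0.611). The sources disagree on the dose: 0.165% DL-ethionine in drinking water over 2 weeks in the series design, an injection of 0.15% in the growth label, and drinking water at 0.15% for 1 week in the methods. Neither the labels nor the methods say whether the mice had been fed or fasted when the livers were taken.

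Total counts per library were 17815568 to 20352675 in the Fibrotic and 18275320 to 24814263 in the FLO group. FLO replicate 3 held 3773 counts of Xist, against 0 to 4 in the other 11 libraries, which is at odds with the stated male sex, and FLO replicates 2 and 3 held skeletal muscle transcripts (summed level of 5 markers in CPM, counts over the TMM-scaled library size, 73.7 and 171 CPM, against 0.588 to 2.11 CPM in the other 10). Summed hepatocyte markers did not pass the test between the groups (88.7% of FLO, adjusted p = 0.213, exact permutation test). Of these 7 markers 1, Fgb, was called higher (176% of FLO) and 1, Apoa1, was called lower (31.3% of FLO). Alb made up most of the sum, with a mean of 65410 of 97745 CPM in FLO livers. Summed cholangiocyte markers (4 of 6 tested called higher) went from 47.3 to 88.7 CPM in FLO to 81.5 to 277 CPM in Fibrotic livers (exact permutation test, adjusted p = 0.0188), and Kupffer cell markers (4 of 5 called higher) from 121 to 157 CPM to 171 to 331 CPM (exact permutation test, adjusted p = 0.0141). Macrophage markers (2 of 7 called higher) stood at 162% of FLO (adjusted p = 0.0394), pericentral hepatocyte genes (3 of 8 called lower) at 65.3% (adjusted p = 0.0281) and endothelial markers (1 of 6 called lower) at 80.6% (adjusted p = 0.0141, all by exact permutation tests). Stellate cell, lymphocyte, acinar, adipocyte and periportal lists had adjusted p-values of 0.222 to 0.877 by the same exact test. Such values do not show that these cells were unchanged. Periportal genes were called in both directions (1 higher, 2 lower), the adipocyte sum came mostly from Cidec, and the acinar markers Cpa1, Cel and Pnlip had no counts. The shifts in marker levels accompany every difference given here, and their part in it was not tested.

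The liver keeps blood glucose steady between meals by gluconeogenesis, which builds glucose from lactate, alanine and glycerol, and by breakdown of glycogen. Several steps are opposed by a different enzyme working in the direction of glycolysis, so the balance between the partners of each pair sets the direction of flow, and hormones act on both: glucagon raises transcription of Pck1 and G6pc through cAMP, and insulin lowers it through the forkhead factor FOXO1. In ob/ob mice gluconeogenesis is known to run high in spite of high insulin.

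Because cAMP and FOXO1 act on the promoters of Pck1 and G6pc, the letters of a pair of motifs were searched in all 9 genes. The search covered the 250 bases before each RefSeq start site (GRCm38.p6). Entries existed for 7 of the 9 genes, with 11 windows between them. In the 3 windows with a match, printed 5′ to 3′ on the strand of the gene, capitals mark the match, TGACG or its reverse complement CGTCA (the cAMP response half-site) in Pck1 (chr2:173152823-173153072) and Pygl (chr12:70227684-70227933), and TGTTTTG (the forkhead core of insulin response sequences, searched on both strands) in G6pc (chr11:101367466-101367715).
Pck1: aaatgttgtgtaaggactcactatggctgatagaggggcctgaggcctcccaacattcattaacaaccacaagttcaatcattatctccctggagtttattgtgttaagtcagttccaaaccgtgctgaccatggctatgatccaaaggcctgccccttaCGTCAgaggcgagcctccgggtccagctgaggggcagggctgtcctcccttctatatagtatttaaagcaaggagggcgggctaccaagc
Pygl: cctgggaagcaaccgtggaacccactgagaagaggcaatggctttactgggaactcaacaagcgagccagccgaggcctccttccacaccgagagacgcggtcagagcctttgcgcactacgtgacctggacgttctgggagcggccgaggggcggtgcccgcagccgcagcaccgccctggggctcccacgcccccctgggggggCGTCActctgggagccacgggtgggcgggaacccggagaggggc
G6pc: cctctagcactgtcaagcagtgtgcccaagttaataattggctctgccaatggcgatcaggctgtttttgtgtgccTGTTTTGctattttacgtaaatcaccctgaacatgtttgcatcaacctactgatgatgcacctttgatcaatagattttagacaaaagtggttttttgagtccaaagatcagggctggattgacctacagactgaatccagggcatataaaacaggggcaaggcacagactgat
The half-site lay at -90 to -86 in Pck1 and at -44 to -40 in Pygl, counted from the start site, and the forkhead core at -174 to -168 in G6pc. The windows of Fbp1, Pcx, Pfkfb1 and Slc2a2 held neither. Of all 32851 promoter windows of this length, 17.8% held the half-site and 5.56% the forkhead core, so a match describes the sequence and shows no binding. A TATA box (TATAAA, in 12.4% of all windows) occurred in 2 of the 11 windows, beginning at -29 in G6pc and at -193 in 1 window of Pfkfb1. The CCAAT box, the HNF1 half-site GTTAAT and the glucocorticoid receptor half-site TGTTCT, also searched on both strands, occurred in 6, 3 and 0 of the 11 windows, beside 33.8%, 6.43% and 16.1% of all. The RefSeq starts of Pck1, Pygl and G6pc lie inside the span that GENCODE M21 gives each gene.

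To ask how the glucose genes changed with ethionine, the groups were compared by the edgeR quasi-likelihood test over all tested genes. Calls required FDR ≤ 0.01 after Benjamini-Hochberg adjustment and a change of more than 0.5 on the log2 scale. Of the 9 genes, 7 were called lower in the Fibrotic livers and 0 higher, beside 14.0% of all tested genes called lower and 15.9% called higher (29.9% in either direction). The median log2 fold change of the 9 was -1.13, and that of all tested genes 0.03. The groups did not overlap in the 7 called genes, beside 15.1% of all genes that lay wholly lower, 15.3% wholly higher and 30.4% wholly apart in either direction. Without FLO replicate 3, whose sex markers go against its label, or without Fibrotic replicate 4, 7 of 9 were likewise called. In whole liver, fewer cells of a type and less RNA per cell cannot be told apart.

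**Figure D1:**
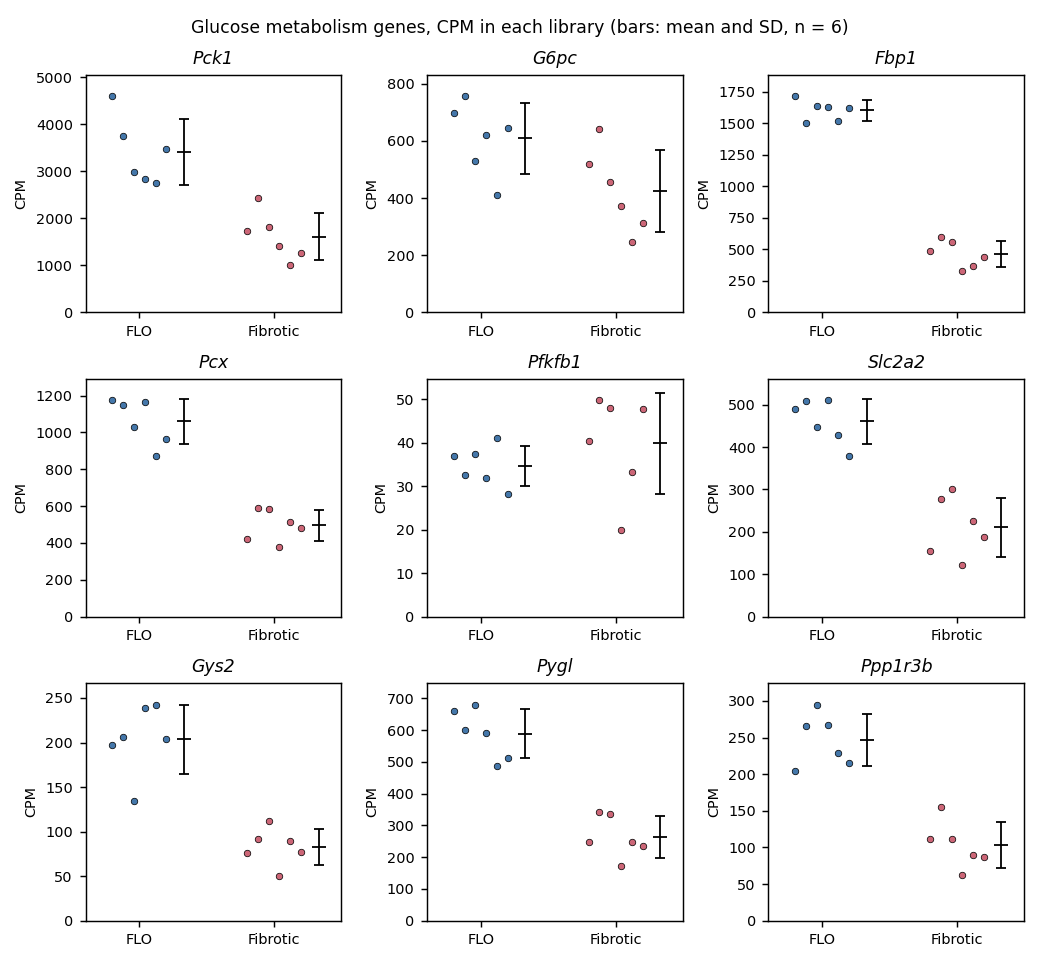
Level of each of the 9 genes in every library, in CPM (the count of a gene over the TMM-scaled size of its library), with 1 point per mouse and, beside the points, the group mean with its SD. In Pck1, Fbp1, Pcx, Slc2a2, Gys2, Pygl and Ppp1r3b all 6 Fibrotic points lie under all 6 FLO points, whereas in G6pc and Pfkfb1 the groups overlap.

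Gluconeogenesis begins with Pcx (ENSMUSG00000024892, GRCm38 chr19:4510472-4621752, plus strand), pyruvate carboxylase, which makes oxaloacetate from pyruvate in mitochondria. Pcx ranged from 874 to 1175 CPM in FLO livers (median 1088) and from 376 to 587 CPM in Fibrotic livers (median 499). Every Fibrotic liver lay below every FLO liver. On the log2 scale Pcx changed by -1.10 (SE 0.13, 95% CI -1.36 to -0.83, adjusted p = 4.14e-06), which is 46.7% of the FLO level.

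Pck1 (ENSMUSG00000027513, chr2:173153048-173159273, plus strand) encodes the cytosolic phosphoenolpyruvate carboxykinase, which turns oxaloacetate into phosphoenolpyruvate. It was the most abundant of the 9 per kilobase of transcript in both groups. Pck1 ranged from 2759 to 4599 CPM in FLO livers (median 3237) and from 1004 to 2431 CPM in Fibrotic livers (median 1568). The groups stayed apart, although the range within the Fibrotic group was wide, from replicate 5 at the bottom to replicate 2 at the top. Pck1 thus changed by -1.08 on the log2 scale (SE 0.19, 95% CI -1.50 to -0.67, adjusted p = 0.00027), or 47.3% of FLO. Pck2, the mitochondrial form, went from a median of 6.85 to 9.14 CPM and was not called (log2 fold change 0.42, adjusted p = 0.0300), but was called under scaling to total counts (0.60, adjusted p = 0.00677) or to hepatocyte markers (0.58, adjusted p = 0.00571).

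The largest fall among the 9 was in Fbp1 (ENSMUSG00000069805, chr13:62864753-62888282, minus strand), fructose-1,6-bisphosphatase, which removes a phosphate from fructose 1,6-bisphosphate and opposes phosphofructokinase. Fbp1 ranged from 1500 to 1716 CPM in FLO livers (median 1624) and from 327 to 597 CPM in Fibrotic livers (median 463). The FLO livers lay close together, with a coefficient of variation of 5.06%, and the highest Fibrotic liver was far below the lowest of them. This made a log2 fold change of -1.79 (SE 0.14, 95% CI -2.09 to -1.50, adjusted p = 1.00e-07), which left 28.9% of the FLO level.

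G6pc (ENSMUSG00000078650, chr11:101367561-101377903, plus strand) encodes the catalytic subunit of glucose-6-phosphatase, the last step before glucose leaves the hepatocyte, and did not pass the threshold. It ranged from 409 to 756 CPM in FLO livers (median 634) and from 247 to 640 CPM in Fibrotic livers (median 413). The groups overlapped: 3 of 6 Fibrotic livers lay below the lowest FLO liver and 5 of 6 below the FLO median, while Fibrotic replicate 2 lay above it. The log2 fold change was -0.52 (SE 0.21, 95% CI -0.97 to -0.08, adjusted p = 0.0469), and without Fibrotic replicate 2 it was -0.68 (adjusted p = 0.00875), which is past the threshold. At an adjusted p of 0.05 with no fold limit G6pc would be called and the count become 8 of 9, beside 52.1% of all tested genes. Slc37a4, the transporter that brings glucose 6-phosphate to this enzyme in the endoplasmic reticulum, ranged from 288 to 374 CPM in FLO and from 155 to 225 CPM in Fibrotic livers, without overlap, and was called lower (-0.72, SE 0.10, adjusted p = 2.89e-05). Whether the change of G6pc differed from that of Pck1 or Fbp1 was not tested.

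Slc2a2 (ENSMUSG00000027690, chr3:28697903-28731359, plus strand) encodes GLUT2, the facilitative transporter through which glucose crosses the hepatocyte membrane in both directions. It ranged from 378.5 to 510 CPM in FLO livers (median 468) and from 121 to 299.8 CPM in Fibrotic livers (median 206). No Fibrotic liver reached the lowest FLO liver, and Fibrotic replicate 4 was lowest. Slc2a2 changed by -1.13 on the log2 scale (SE 0.19, 95% CI -1.53 to -0.73, adjusted p = 0.000155).

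Pfkfb1 (ENSMUSG00000025271, chrX:150588229-150643878, plus strand) encodes the liver form of the bifunctional enzyme that makes and degrades fructose 2,6-bisphosphate, the signal that promotes phosphofructokinase and inhibits fructose-1,6-bisphosphatase. It was the only 1 of the 9 with a log2 fold change above 0. It ranged from 28.2 to 41.0 CPM in FLO livers (median 34.7) and from 19.9 to 49.7 CPM in Fibrotic livers (median 44.1). The Fibrotic livers spread to both sides of the FLO livers, with 3 above the highest and 1, replicate 4, below the lowest. Its log2 fold change was 0.20 (SE 0.18, 95% CI -0.19 to 0.59, adjusted p = 0.377). Its exons overlap those of Apex2 on the opposite strand (3 of 30 annotated exons). The RNA-seq methods of the study name a stranded library kit, but use of strand in the counting is not given. If strand was not used, a share of its reads could belong to Apex2.

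All 3 glycogen genes fell. Gys2 (ENSMUSG00000030244, chr6:142422613-142473109, minus strand), the liver glycogen synthase, ranged from 134 to 243 CPM in FLO livers (median 205) and from 49.98 to 112 CPM in Fibrotic livers (median 83.2). The groups did not overlap, and FLO replicate 3, whose sex markers go against its label, stood apart as the lowest FLO liver with the next at 197 CPM. Gys2 changed by -1.30 on the log2 scale (SE 0.17, 95% CI -1.67 to -0.93, adjusted p = 2.25e-05), or 40.7% of FLO.

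Pygl (ENSMUSG00000021069, chr12:70190811-70231488, minus strand) encodes liver glycogen phosphorylase, which frees glucose 1-phosphate from glycogen and so opposes Gys2. It ranged from 487 to 681 CPM in FLO livers (median 596) and from 174 to 344 CPM in Fibrotic livers (median 248), again without overlap. The log2 fold change was -1.16 (SE 0.15, 95% CI -1.48 to -0.83, adjusted p = 1.63e-05). Ppp1r3b (ENSMUSG00000046794, chr8:35375739-35388139, plus strand) encodes a subunit that brings protein phosphatase 1 to glycogen, where dephosphorylation activates the synthase and inactivates the phosphorylase. It ranged from 205 to 295 CPM in FLO livers (median 248) and from 62.9 to 156 CPM in Fibrotic livers (median 100.03), and every Fibrotic liver was lower than every FLO liver. Ppp1r3b changed by -1.26 on the log2 scale (SE 0.18, 95% CI -1.63 to -0.88, adjusted p = 3.17e-05), or 41.8% of FLO.

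**Figure D2:**
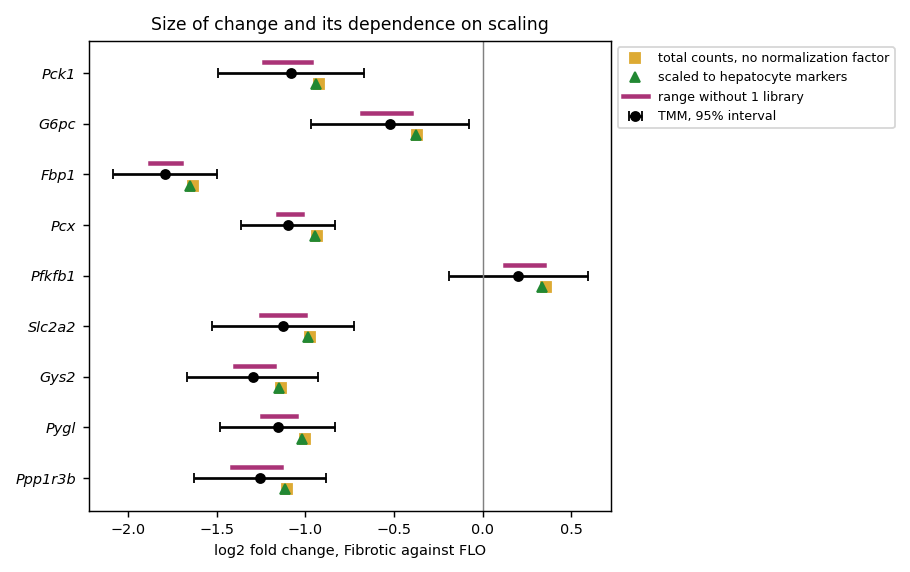
Log2 fold change of the 9 genes, Fibrotic against FLO, with the 95% confidence interval of the edgeR fit (black points, n = 6 per group), the value under scaling to total counts (squares) or to hepatocyte markers (triangles), and the range when each library was left out (purple lines). The values run from -1.79 for Fbp1 to 0.20 for Pfkfb1, with 6 of the genes between -1.30 and -1.08.

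The Fibrotic livers did not differ from the FLO livers equally. Fibrotic replicate 4 was the lowest of its group in 7 of the 9 genes (all but Pck1 and G6pc, where replicate 5 was lowest), and Fibrotic replicate 2 was the highest in 7 of 9 (all but Slc2a2 and Gys2, where replicate 3 was highest). Replicate 4 also had the highest TMM factor, 1.20, against a Fibrotic mean of 1.07 and a FLO mean of 0.94. Among FLO livers, replicate 5 was lowest in 4 genes, and no library was highest in more than 3.

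Per kilobase of the longest annotated transcript, the mean level in FLO livers fell in the order Pck1 (1248 ± 257 CPM per kb, SD, n = 6), Fbp1 (1084 ± 54.8), Pcx (255 ± 29.8), G6pc (252 ± 51.5), Pygl (187 ± 24.4), Slc2a2 (82.7 ± 9.36), Gys2 (76.6 ± 14.6), Ppp1r3b (56.2 ± 7.99) and Pfkfb1 (12.9 ± 1.73). Neighbours in that order overlapped in range except Fbp1 and Pcx, Pygl and Slc2a2, and Ppp1r3b and Pfkfb1. In Fibrotic livers the order of means was the same but for G6pc (176 ± 59.5 CPM per kb), which stood above Pcx (119 ± 20.7), and these ranges overlapped. Pck1 remained first at 590 ± 184 CPM per kb and Fbp1 next at 313 ± 71.3, and the ranges of those neighbours also overlapped. The gap between them is uncertain to the extent that the transcript used differs from the longest.

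Enzymes that run against Pck1 and Fbp1 in the direction of glycolysis were also measured. Pklr, the liver pyruvate kinase, which uses up the product of Pck1, ranged from 524 to 862 CPM in FLO livers (median 652) and from 108 to 382 CPM in Fibrotic livers (median 205). Every Fibrotic liver lay below every FLO liver, and Pklr was called lower (-1.56, SE 0.25, adjusted p = 0.000148). Pfkl, the liver phosphofructokinase, which opposes Fbp1, ranged from 47.3 to 62.3 CPM in FLO and from 42.7 to 50.8 CPM in Fibrotic livers, overlapped and was not called (-0.27, SE 0.08, adjusted p = 0.0141). Thus the glycolytic partner of Pck1 was called lower, and that of Fbp1 was not.

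To set opposing enzymes against each other within a library, where scaling between libraries has little effect, log2 ratios of CPM were taken. They were given no test, since the pairs were chosen with results known. The log2 ratio of Pfkl to Fbp1 went from -4.86 ± 0.22 (SD, n = 6) in FLO to -3.30 ± 0.33 in Fibrotic livers, a difference of 1.56 towards the glycolytic partner with no overlap between groups.

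The log2 ratio of Pklr to Pck1 was -2.35 ± 0.42 in FLO and -2.89 ± 0.75 in Fibrotic livers, and that of Gys2 to Pygl was -1.55 ± 0.46 and -1.68 ± 0.15. Both overlapped. The difference in the glycogen pair was -0.13, or -0.29 without FLO replicate 3, whose ratio of -2.34 lay below that of the next FLO liver, at -1.74. All 6 Fibrotic livers lay below the FLO median of -1.44.

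**Figure D3:**
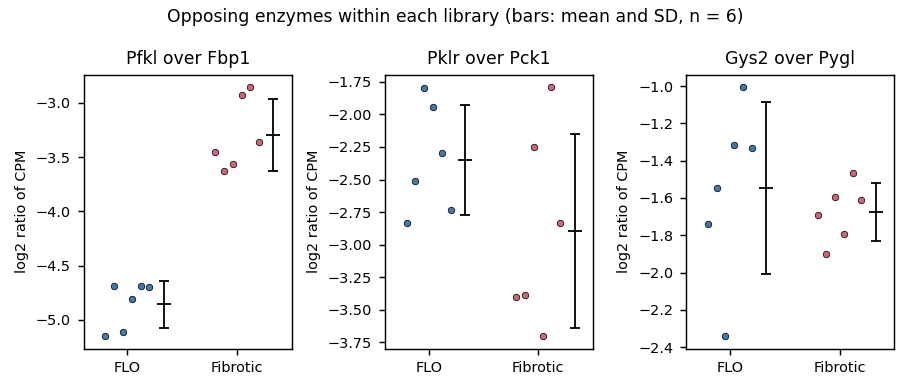
Log2 ratio of CPM of the glycolytic or synthetic gene over its opposing gene in each library, with the 6 FLO and 6 Fibrotic livers as points and the group mean with its SD beside them. The groups separate in the ratio of Pfkl to Fbp1, where Fibrotic livers lie higher by 1.56, and overlap in the ratios of Pklr to Pck1 and of Gys2 to Pygl.

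Beyond the 9 genes, 144 others of glucose metabolism and its control were examined in 9 lists, of which 133 were tested. Of these, 22 were called higher (16.5%), 28 lower (21.1%) and 83 were not called, with a median log2 fold change of 0.00. Of all tested genes 15.9% were called higher, 14.0% lower and 29.9% in either direction, the shares against which the counts of each list are to be read.

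Among 21 genes that supply precursors or release glucose, all tested, 5 were called higher and 4 lower (42.9% called, median 0.09). Ldha, the A subunit of lactate dehydrogenase, fell from 937 to 1215 CPM in FLO to 391 to 564 CPM in Fibrotic livers (-1.20, SE 0.12, adjusted p = 9.67e-07). Ldhb, the B subunit, was at 1.20 to 8.0 CPM in FLO and 7.96 to 11.3 CPM in Fibrotic livers, overlapped and was called higher (1.45, SE 0.34, adjusted p = 0.00284), a call lost with no low-count filter (adjusted p = 0.0134).

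Got1 and Mdh2, aminotransferase and malate dehydrogenase of the malate-aspartate exchange that carries oxaloacetate equivalents across the mitochondrial membrane, rose (log2 fold changes 0.81 and 0.69), as did G6pc3, the glucose-6-phosphatase subunit expressed in most tissues (0.69). Gk, glycerol kinase, and Aqp9, the glycerol channel, were called lower (-0.54 and -0.50), but neither under scaling to total counts (-0.36 and -0.34). Aqp9 fell short of the fold limit in 4 of 12 fits that each left out a library.

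Among 19 tested glycolysis enzymes, 2 were called higher and 3 lower (26.3% called, median 0.22). Besides Pklr, Eno3, the muscle enolase, was called lower (-0.86, SE 0.25, adjusted p = 0.00911). Eno3 was highest, at 8.13 and 7.52 CPM, in FLO replicates 3 and 2, the libraries with muscle transcripts, and 9 of 12 fits that left out a library did not call it (without FLO replicate 3, -0.71, adjusted p = 0.0260). Pkm, the pyruvate kinase of most tissues other than liver, rose from 26.5 to 40.5 CPM in FLO to 50.9 to 170 CPM in Fibrotic livers (1.58, SE 0.23, adjusted p = 5.54e-05), and Pgam1, phosphoglycerate mutase, rose by 0.85 (SE 0.07, adjusted p = 2.6e-07). How reads shared with processed pseudogenes, which Pgam1, Ldha and Pkm have, were counted is not given in the sources used here.

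Of 16 regulators of glycolysis and of pyruvate dehydrogenase, 6 were called higher and 4 lower (62.5% called, median 0.29). Pfkfb4, another form of the bifunctional enzyme encoded by Pfkfb1, rose from 0.547 to 1.95 CPM in FLO to 8.73 to 22.1 CPM in Fibrotic livers without overlap (3.42, SE 0.28, adjusted p = 2.91e-07). Gckr, a regulator of glycolysis in the hepatocyte nucleus, fell from 208 to 250 CPM to 45.8 to 151 CPM (-1.11, SE 0.21, adjusted p = 0.000503).

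Of the kinases that inactivate pyruvate dehydrogenase, Pdk1 (-1.48) and Pdk2 (-0.71) fell and Pdk3 (2.92) and Pdk4 (2.35) rose. Pdk4 reached 571 CPM in Fibrotic replicate 4 beside a group median of 159.7 CPM, and without that library its log2 fold change was 1.76 (adjusted p = 0.00267). Dlat, a core subunit of the complex, fell by 1.14 on the log2 scale, and Pdp1, a phosphatase that reactivates it, rose at a low level (0.287 to 1.22 CPM in FLO, 1.78 to 4.07 CPM in Fibrotic livers).

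Genes of glycogen synthesis other than Gys2 and Ppp1r3b were mostly not called, with 1 of 14 higher and 2 lower (21.4% called, median -0.06). The targeting subunits diverged: Ppp1r3g fell from 7.74 to 23.2 CPM in FLO to 0.187 to 1.08 CPM in Fibrotic livers (-4.40, SE 0.36, adjusted p = 3.34e-07), whereas Ppp1r3c rose from 9.40 to 29.2 CPM to 40.9 to 78.2 CPM (1.65, SE 0.26, adjusted p = 0.000119). Both belong with Ppp1r3b to the subunits that direct protein phosphatase 1 to glycogen. Pgm1, which interconverts glucose 1-phosphate and glucose 6-phosphate, fell by 0.87 on the log2 scale.

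In glycogen breakdown, 4 of 11 tested genes were called lower and 1 higher (45.5% called, median -0.46). Those lower included Phkb and Phka2, subunits of the kinase that activates phosphorylase (-1.14 and -0.77), and Gaa, the lysosomal glucosidase (-0.56, but -0.47 and within the fold limit without Fibrotic replicate 4). The higher one was Pygb, the brain form of phosphorylase, which rose from 5.83 to 7.70 CPM to 13.3 to 20.3 CPM (1.46, SE 0.12, adjusted p = 2.18e-07).

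**Figure D4:**
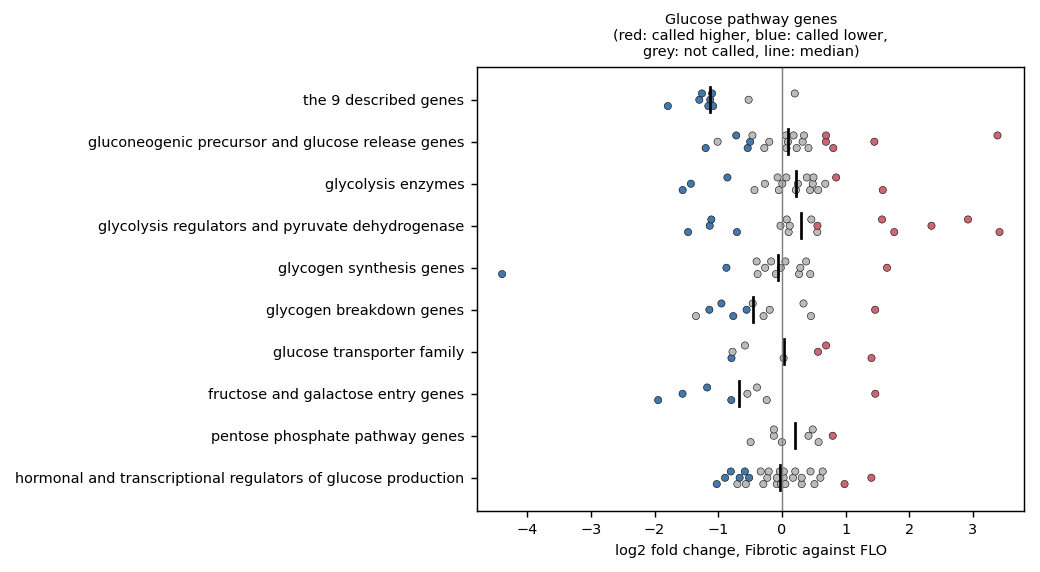
Log2 fold change, Fibrotic against FLO, of every tested gene of the 9 lists of glucose metabolism and, in a separate row, of the 9 described genes. There is 1 point per gene, coloured by call, with a line at the median of each row. Medians of the 9 lists run from -0.67 for fructose and galactose entry to 0.29 for glycolysis regulators and pyruvate dehydrogenase. Called genes lie on both sides of 0 in each of these lists but the pentose phosphate pathway. In the row of the 9 described genes the median is -1.13 and all called genes lie below 0.

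Of 7 tested glucose transporters other than Slc2a2, 3 were called higher and 1 lower (57.1% called, median 0.03). Slc5a1, a sodium-coupled transporter, Slc2a1, the GLUT1 transporter of most cells, and Slc2a8 rose by 1.41, 0.69 and 0.57 on the log2 scale, and Slc2a9, which carries urate, fell (-0.79). Slc5a1 stayed below 8 CPM in every library, and the ranges of Slc2a1 and Slc2a8 overlapped between groups.

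Genes by which fructose and galactose enter the pathways were called lower in 4 of 8 cases and higher in 1 (62.5% called, median -0.67). Galm, galactose mutarotase, fell by 1.95 on the log2 scale, Sord, sorbitol dehydrogenase, fell from 1718 to 2000 CPM in FLO to 472 to 1091 CPM in Fibrotic livers (-1.18, SE 0.15, adjusted p = 1.5e-05), and Galk1, galactokinase, fell by 0.80. Akr1b3, the aldose reductase that makes sorbitol from glucose, rose (1.47). Among 8 pentose phosphate genes, Rpia, ribose 5-phosphate isomerase, was called higher (0.80) and the other 7 were not called (median 0.21).

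Among 29 hormonal and transcriptional regulators of glucose production, 2 were called higher and 6 lower (27.6% called, median -0.03). Cebpb, a transcription factor of the acute phase and of Pck1, rose (0.98), and Adra1b, the alpha-1B adrenergic receptor, and Prkaca, a catalytic subunit of protein kinase A, were called lower (-0.80 and -0.67). Gcgr, the glucagon receptor, ranged from 302 to 343 CPM in FLO and from 128 to 249 CPM in Fibrotic livers, was called lower (-0.58, SE 0.13, adjusted p = 0.00197), and fell within the fold limit without Fibrotic replicate 4 (-0.46). Irs2, an adaptor of the insulin receptor, and Onecut1, a liver transcription factor, were called lower with ranges that overlapped (-1.02 and -0.89), and Onecut1 was not called without FLO replicate 4 (-0.73, adjusted p = 0.0103). Under scaling to total counts Gcgr, Irs2, Onecut1, Prkaca and Gaa were not called.

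Crtc2, the coactivator through which cAMP signals reach CREB at Pck1 and G6pc, falls outside the naming rule and was chosen after its values were seen. It ranged from 25.3 to 34.1 CPM in FLO and from 17.4 to 22.9 CPM in Fibrotic livers without overlap and was called lower (-0.52, SE 0.09, adjusted p = 0.000252). This change is close to the fold limit of 0.5, and its values under other scaling or without single libraries are not given here. Gk and Gaa, with similar changes (-0.54 and -0.56), were not called under scaling to total counts (-0.36 and -0.39). Several other regulators of Pck1 and G6pc did not pass the test. Foxo1 ranged from 42.8 to 58.2 CPM in FLO and from 51.1 to 114 CPM in Fibrotic livers (0.51, SE 0.15, adjusted p = 0.0123), a value called without Fibrotic replicate 1 (0.60, adjusted p = 0.00257) or replicate 5 (0.57, adjusted p = 0.00905), and with scaling to total counts (0.70, adjusted p = 0.00393) or to hepatocyte markers (0.68, adjusted p = 0.00374). Ppargc1a, a coactivator raised in fasting, stood at 0.64 (SE 0.23, adjusted p = 0.0317) and was called without FLO replicate 1 (0.82, adjusted p = 0.00567), with scaling to total counts (0.80, adjusted p = 0.00410) and with scaling to hepatocyte markers (0.78, adjusted p = 0.00793). Hnf4a (-0.08, SE 0.11), Insr, the insulin receptor (-0.21, SE 0.11), and Mlxipl, the glucose-sensing factor ChREBP (0.17, SE 0.17), were not called either, with adjusted p-values of 0.536, 0.117 and 0.421.

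Several steps are served by different forms of an enzyme, transporter or subunit. In each family the form termed the liver form here had the highest mean CPM of the tested members in FLO livers. The other forms may also be expressed in hepatocytes. For 11 liver forms, 29 other forms of the same family were in the lists, of which 22 were tested. The grouping was made after the values had been seen, so its counts are a description. Of the 22 other forms 9 were called higher (40.9%) and 2 lower (9.09%), beside 15.9% and 14.0% of all tested genes. Their median log2 fold change was 0.49. The 9 include Fbp2, at 0.0574 to 0.355 CPM in FLO and 0.611 to 3.56 CPM in Fibrotic livers. Fbp2 passed the low-count filter only through the Fibrotic libraries, where it is high, so its call adds no support to the count. Forms that were low in both groups were not tested.

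Most of the liver forms were themselves called lower, while the median log2 fold change of all tested genes was 0.03. A gene with no change would thus also lie above those liver forms. Slc2a9 lay above Slc2a2 although it was called lower (-0.79), and Slc2a2 entered several of the pairs. With this limit, the log2 fold change of the other form lay above that of the liver form for 18 of the 22 and below it for 4. Those below were Ppp1r3g (-4.40, called lower), Pygm, the muscle phosphorylase (-1.35, SE 0.43, adjusted p = 0.0167), Pfkm, the muscle phosphofructokinase (-0.43, SE 0.11, adjusted p = 0.00393, under the fold limit), and Pfkfb2 (0.12, SE 0.14, adjusted p = 0.486). Pygm was highest in FLO replicates 2 and 3, the libraries with muscle transcripts. The largest differences were between Fbp1 (-1.79) and Fbp2 (3.39), Pfkfb1 (0.20) and Pfkfb4 (3.42), Pklr (-1.56) and Pkm (1.58), and, in the other direction, Ppp1r3b (-1.26) and Ppp1r3g. Fbp2, the muscle fructose bisphosphatase, falls outside the rule for named genes because of its low level, with 1 to 6 counts in FLO and 12 to 76 in Fibrotic libraries, and was chosen after its values were seen. Pck2 (0.42) and Gys1 (-0.17) were not called, nor were the liver forms G6pc, Pfkfb1 and Pfkl. The summed cholangiocyte, Kupffer cell and macrophage markers were also higher in these livers, and their part in the pattern was not tested.

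**Figure D5:**
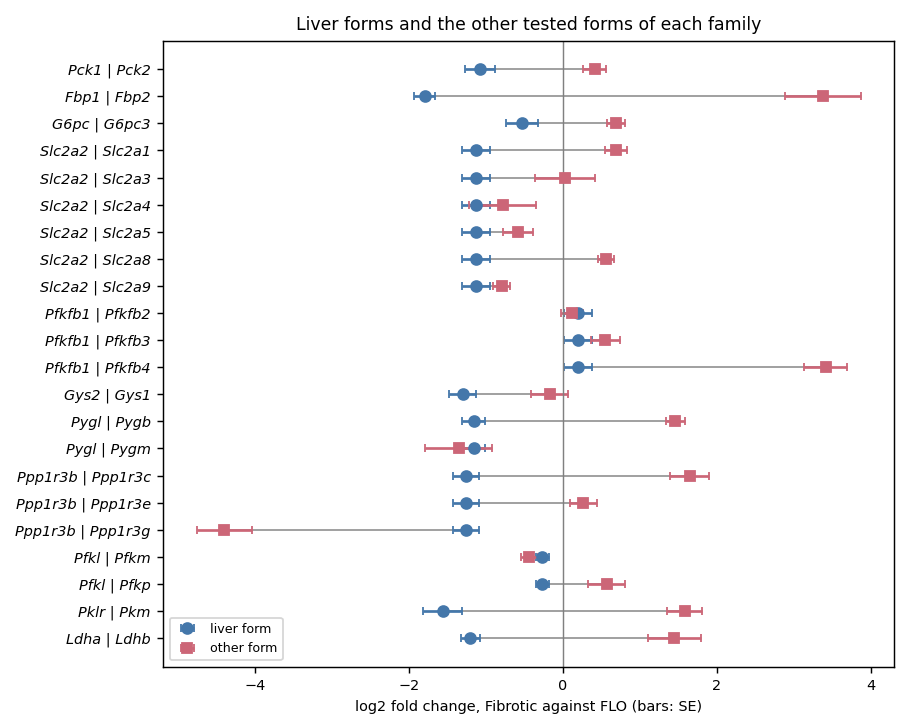
Log2 fold change, Fibrotic against FLO, of the liver form (circle) and of each other tested form of its family (square), with SE as bars and a line joining each of the 22 pairs. The other form lies above the liver form in 18 pairs, by 5.18 for Fbp2 over Fbp1, and below it in 4, by 3.14 on the log2 scale for Ppp1r3g under Ppp1r3b. Fbp2 passed the low-count filter only through the Fibrotic libraries. Most liver forms were called lower, so a gene with no change would also lie above those.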

How the data were processed

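Poly(A)-selected libraries from whole liver were sequenced, 1 per mouse, in 6 Fibrotic and 6 FLO mice, and groups and replicate numbers were read from the sample titles. The deposited table holds raw counts, whole numbers for each Ensembl gene, which the authors had not normalized. The submitters' processing notes name bcl2fastq, STAR 2.7.3a and mm10, and neither the annotation nor the use of strand in counting is given in the sources used here. The table held 56205 genes, 24871 of them with a count. A name table gave symbols for 51745, and the rest held 0.0587% of counts. As 2122 identifiers belong to a newer series than GENCODE M21 holds, positions and transcript lengths from GENCODE M21 (GRCm38) are reference values, which may differ from the models the authors counted. Promoter sequences and start sites are from RefSeq (GRCm38.p6).

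The quasi-likelihood test of edgeR 4.0.16 (R 4.3.3) was run with TMM factors, a robust fit and the filterByExpr filter, and with Benjamini-Hochberg adjustment over all 13416 genes. Calls required FDR ≤ 0.01 and a log2 change of more than 0.5 in either direction, as in the methods of the study. The SE is the absolute log2 fold change divided by the square root of F. CPM are at the TMM-normalized library size, and ratios used a prior count of 2. Summed marker levels were compared by two-sided exact permutation over 924 assignments (smallest p 0.00216), adjusted over 13 values. Nothing says more of the replicates than that each is a mouse. Pairs of libraries in a group differed by more than counting noise (smallest chi-square per degree of freedom 10.3), and intervals include this spread.

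The 9 genes, the lists and the tests were chosen with earlier results of these data known. Named genes were the 9, Pfkl, Pklr, Slc37a4, Pck2, Ppargc1a, Foxo1, Gcgr, Hnf4a, Insr and Mlxipl, and from each list up to 4 called genes per direction with the largest change and a mean of at least 1 CPM. Some genes that this rule names, and the pairs they belong to, are not reported here, while counts over whole lists include them. Alternatives were RLE, upper quartile and total-count scaling, TMM factors that leave out the top 50 genes by count, a minimum of 10 counts in each library or no filter, limma-voom 3.58.1, DESeq2 1.42.0, a non-robust fit, a looser threshold, a replicate block, a prior count of 0.5 and leaving out each library. Scaling to 7 hepatocyte markers, which include Apoa1 (called lower) and Fgb (called higher), was added after the data had been seen. The fit was tested on simulated counts.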

Additional observations from a re-analysis of the deposited data

Results flagged for a closer look

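Dixon's ratio, the distance of the highest or lowest of 6 libraries to the next one as a share of the whole spread, was taken in each group for each of 58 named genes and 3 log2 ratios and compared with its limit of 0.625. Of 122 such groups 9 passed the limit, where chance gives about 1 in 20, or 6.1.

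Fibrotic replicate 4 accounted for 6 of the 9. It was the lowest of its group for Galk1 (34.3 CPM, next 54.1 CPM, ratio 0.669), Gcgr (128 CPM, next 199 CPM, ratio 0.660) and Adra1b (33.3 CPM, next 54.8 CPM, ratio 0.653). It was the highest for Irs2 (13.1 CPM, next 6.48 CPM, ratio 0.662), Ppp1r3c (78.2 CPM, next 51.6 CPM, ratio 0.643) and Mdh2 (577 CPM, next 490.3 CPM, ratio 0.638).

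FLO replicate 3 was the lowest of its group for Gys2 (134 CPM, next 197 CPM, ratio 0.651) and Mdh2 (277 CPM, next 303 CPM, ratio 0.729). FLO replicate 4 was the lowest for Slc5a1 (0.734 CPM, next 1.57 CPM, ratio 0.816).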

How the results depend on the processing

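Among 1716 values recomputed under the alternatives, 1633 were labelled the same, 36 weaker, 45 stronger and 2 changed sign. A log2 fold change was the same when it kept its direction and its side of the threshold. A count of called genes was the same within a set factor of the main count. A log2 ratio difference was the same when it kept its sign and moved by less than the larger group SD. Of the 9 glucose genes, 7 were called under RLE, upper quartile, total-count and hepatocyte-marker scaling, DESeq2 and limma-voom, and 7 to 8 when each library was left out. Total-count and hepatocyte-marker scaling raised the median log2 fold change of all genes by 0.18 and 0.16, and gave 3137 genes higher and 1233 lower, and 3032 higher and 1287 lower, against 2139 and 1873. Hnf4a then turned to 0.096 and 0.070. At an adjusted p of 0.05 with no fold limit, 6994 genes in all and 84 list genes, against 50, were called. Leaving out each library gave 3798 to 4093 genes in all and 48 to 55 list genes, and log2 ratio differences of 1.47 to 1.63 for Pfkl to Fbp1, -0.76 to -0.38 for Pklr to Pck1 and -0.29 to -0.021 for Gys2 to Pygl. Eno3 was also lost under limma-voom (adjusted p = 0.0172). The cause of these changes was not tested.

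Replicate numbers did not pair the samples: deviations of same-numbered libraries correlated at -0.16 to 0.10, and 0 of 6 correlated best with their own number. With a replicate block 3780 genes and 8 of the 9 were called, G6pc being added (-0.57, adjusted p = 0.00387), and Eno3 was lost (adjusted p = 0.0198). At 17815568 or more counts per library, genes near 1 CPM such as Pdk3, Pdp1 and Fbp2 rest on few counts in FLO livers.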
